A study of Mus musculus with 12 samples.

Results

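The Hox genes of the mouse lie in 4 clusters, and 39 of the 24054 gene symbols in the count files belong to them. They were taken by name alone, as every symbol made of Hox, a cluster letter from a to d and a position number. Cluster A (HoxA) had 11 of these genes, cluster B (HoxB) 10, and clusters C and D (HoxC, HoxD) 9 each. Poly(A) RNA of 12 tissue samples was sequenced, with 4 libraries in each of 3 groups. The group N is wild-type normal colon, which the series describes as tissue next to the grafts. The group BT-T is tumour with the activated kinase allele BrafV600E and Tgfbr2-/-, loss of a TGF-beta receptor. The group BTPRZ-T is tumour with both of these and also Rnf43-/-, Znrf3-/- (a pair of ligases that limit WNT receptors) and p16 Ink4a-/-, loss of a cell cycle inhibitor. The tumours grew from gene-edited colonic organoids placed back into the colon, so their RNA comes from grafted epithelium and from the cells of the host. All 12 samples are labelled with the strain NSG, an immunodeficient mouse that lacks lymphocytes, and no age is given. Nothing in the labels ties libraries to separate mice, so each p-value measures the spread between these samples, which may be technical. The series names the comparison of each tumour genotype with normal colon. The comparison of both genotypes with each other follows from the design.

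Hox genes encode homeodomain transcription factors that give cells their place along the body axis. Within a cluster the genes stand in a row, and their order follows the order of the body regions in which they act. Low numbers (anterior genes) act toward the head, and high numbers (posterior genes) toward the tail, with the genes numbered 13 acting last and furthest back. The adult gut keeps part of this code in its epithelium and in the mesenchyme beneath it, and Hoxb13 is a known marker of distal colon and rectum. Hox proteins bind DNA together with TALE cofactors of the PBX and MEIS families, retinoic acid and CDX factors activate the clusters during development, and Polycomb complexes hold unused genes silent.

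Gene reads came to between 15732004 and 26052772 per library, and between 13450 and 17266 genes had a read. The libraries with the fewest detected genes were BTPRZ-T replicate 4, N replicate 2 and BTPRZ-T replicate 1. Hox genes took 0.0382 to 0.0595% of the gene reads in N, 0.0744 to 0.0935% for BT-T and 0.0702 to 0.0764% for BTPRZ-T. The summed CPM (reads of a gene scaled to a common library total, here after TMM scaling) of 8 epithelial markers overlapped between the groups. They were at 10500 to 13000 in N, 8960 to 10700 for BT-T and 7780 to 16400 for BTPRZ-T. Within BTPRZ-T, replicate 4 was the lowest, and replicates 1 to 3 (12600, 15800 and 16400) lay above all BT-T libraries. Counts over a whole gene do not resolve an edited base, and host cells carry intact alleles, so the altered genes do not check the labels here. Tgfbr2 was at 71.1 to 286 CPM in N, 314 to 527 for BT-T and 149 to 271 for BTPRZ-T. Cdkn2a, the gene of p16 Ink4a and of a second protein, was at 0.23 to 0.354, 8.21 to 15.8 and 18.8 to 31.4 CPM in the same order.

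The Hox genes with the largest fold changes in BT-T, Hoxd10 to Hoxd13, sit next to each other at the posterior end of HoxD, on the plus strand of chromosome 2. To show what they do and do not share, the 250 bases before the RefSeq start are printed for Hoxd13, Hoxd12, Hoxd11 and Hoxd10, which lie in this order within a short stretch of the chromosome. Hoxd8 of the same cluster and Hoxb8 of chromosome 11, which changed in 1 tumour group, stand beside them. The sequences are those of RefSeq on GRCm38.p6, 5′ to 3′ on the plus strand, and 22 of the 39 Hox genes had an entry. Capitals mark matches, on either strand, to 4 motifs: CATAAA of CDX factors, CAATAAA of posterior Hox factors, ATCAAAG of TCF/LEF factors that act in WNT signalling, and TGANTCA of AP-1, which acts downstream of BRAF. No base of these 22 windows lay in more than 1 match.
Hoxd13, chr2:74667975-74668224: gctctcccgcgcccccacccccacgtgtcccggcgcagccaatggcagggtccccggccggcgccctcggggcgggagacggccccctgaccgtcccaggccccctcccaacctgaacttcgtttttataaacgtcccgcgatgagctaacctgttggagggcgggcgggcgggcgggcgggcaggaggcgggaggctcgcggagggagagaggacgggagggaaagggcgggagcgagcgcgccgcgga
Hoxd12, chr2:74674763-74675012: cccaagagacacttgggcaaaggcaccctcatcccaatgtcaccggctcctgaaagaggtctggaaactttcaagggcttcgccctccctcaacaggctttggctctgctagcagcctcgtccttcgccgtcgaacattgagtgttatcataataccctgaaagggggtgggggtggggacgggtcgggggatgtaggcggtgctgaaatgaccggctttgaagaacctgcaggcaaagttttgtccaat
Hoxd11, chr2:74679308-74679557: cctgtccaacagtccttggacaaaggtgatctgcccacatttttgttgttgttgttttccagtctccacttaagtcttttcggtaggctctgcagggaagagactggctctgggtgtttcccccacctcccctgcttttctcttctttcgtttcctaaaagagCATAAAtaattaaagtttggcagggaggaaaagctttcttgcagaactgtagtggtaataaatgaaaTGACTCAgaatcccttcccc
Hoxd10, chr2:74691641-74691890: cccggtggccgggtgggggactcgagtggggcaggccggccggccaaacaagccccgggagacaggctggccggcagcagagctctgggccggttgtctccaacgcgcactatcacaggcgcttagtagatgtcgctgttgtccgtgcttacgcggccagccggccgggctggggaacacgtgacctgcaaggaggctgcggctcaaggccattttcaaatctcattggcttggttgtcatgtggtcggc
Hoxd8, chr2:74704365-74704614: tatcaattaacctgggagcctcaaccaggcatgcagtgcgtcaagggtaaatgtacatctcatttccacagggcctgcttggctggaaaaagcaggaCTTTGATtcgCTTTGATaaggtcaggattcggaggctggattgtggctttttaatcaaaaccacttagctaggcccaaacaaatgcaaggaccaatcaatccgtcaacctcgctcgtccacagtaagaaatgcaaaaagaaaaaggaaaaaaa
Hoxb8, chr11:96281655-96281904: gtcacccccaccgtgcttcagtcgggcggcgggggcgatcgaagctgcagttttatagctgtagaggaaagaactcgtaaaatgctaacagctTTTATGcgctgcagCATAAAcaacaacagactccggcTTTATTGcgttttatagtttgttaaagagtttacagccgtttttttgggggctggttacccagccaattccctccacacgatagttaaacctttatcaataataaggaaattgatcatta

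The windows of Hoxd10 to Hoxd13 differ in base composition and hold few of these letters. The Hoxd13 window holds 31 CpG dinucleotides and that of Hoxd10 holds 20, against 10 for Hoxd12 and 2 for Hoxd11. The median over 32851 promoter windows of the same length is 6. Hoxd11 has 1 CATAAA and 1 TGANTCA match, and Hoxd13, Hoxd12 and Hoxd10 have no match to any of the 4 motifs in this window. Hoxd8 has 2 ATCAAAG matches on the minus strand, 153 to 147 and 143 to 137 bases before the start. Hoxb8 has 2 CATAAA matches and 1 CAATAAA match. CATAAA stood in the windows of 5 of the 22 Hox genes (22.7%) and in 10.8% of all windows. The other motifs each stood in 1 Hox window, against 4.2% of all windows for CAATAAA, 3.21% for ATCAAAG and 6.75% for TGANTCA. A match is a description of the sequence and not a measured binding site.

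Normal colon carried a posterior code from HoxA and HoxB. To compare genes, CPM were divided by the length of the longest annotated transcript in kb (CPM per kb). By this level, Hoxb13 stood highest in N at 72.5 ± 54.9 (SD, n = 4), followed by Hoxb9 at 32.4 ± 10.6, Hoxa7 at 19.7 ± 1.38 and Hoxa10 at 19.01 ± 5.32. Each of these overlapped the next in its range over libraries, so their order is not resolved. HoxB made up 52.7 ± 11.4% of the summed level per kb of all 39 genes, HoxA 43.7 ± 11.8%, HoxD 3.45 ± 3.50% and HoxC 0.149 ± 0.192%. The genes numbered 9 to 13 held 71.7 ± 9.63% of that sum.

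**Figure D1:**
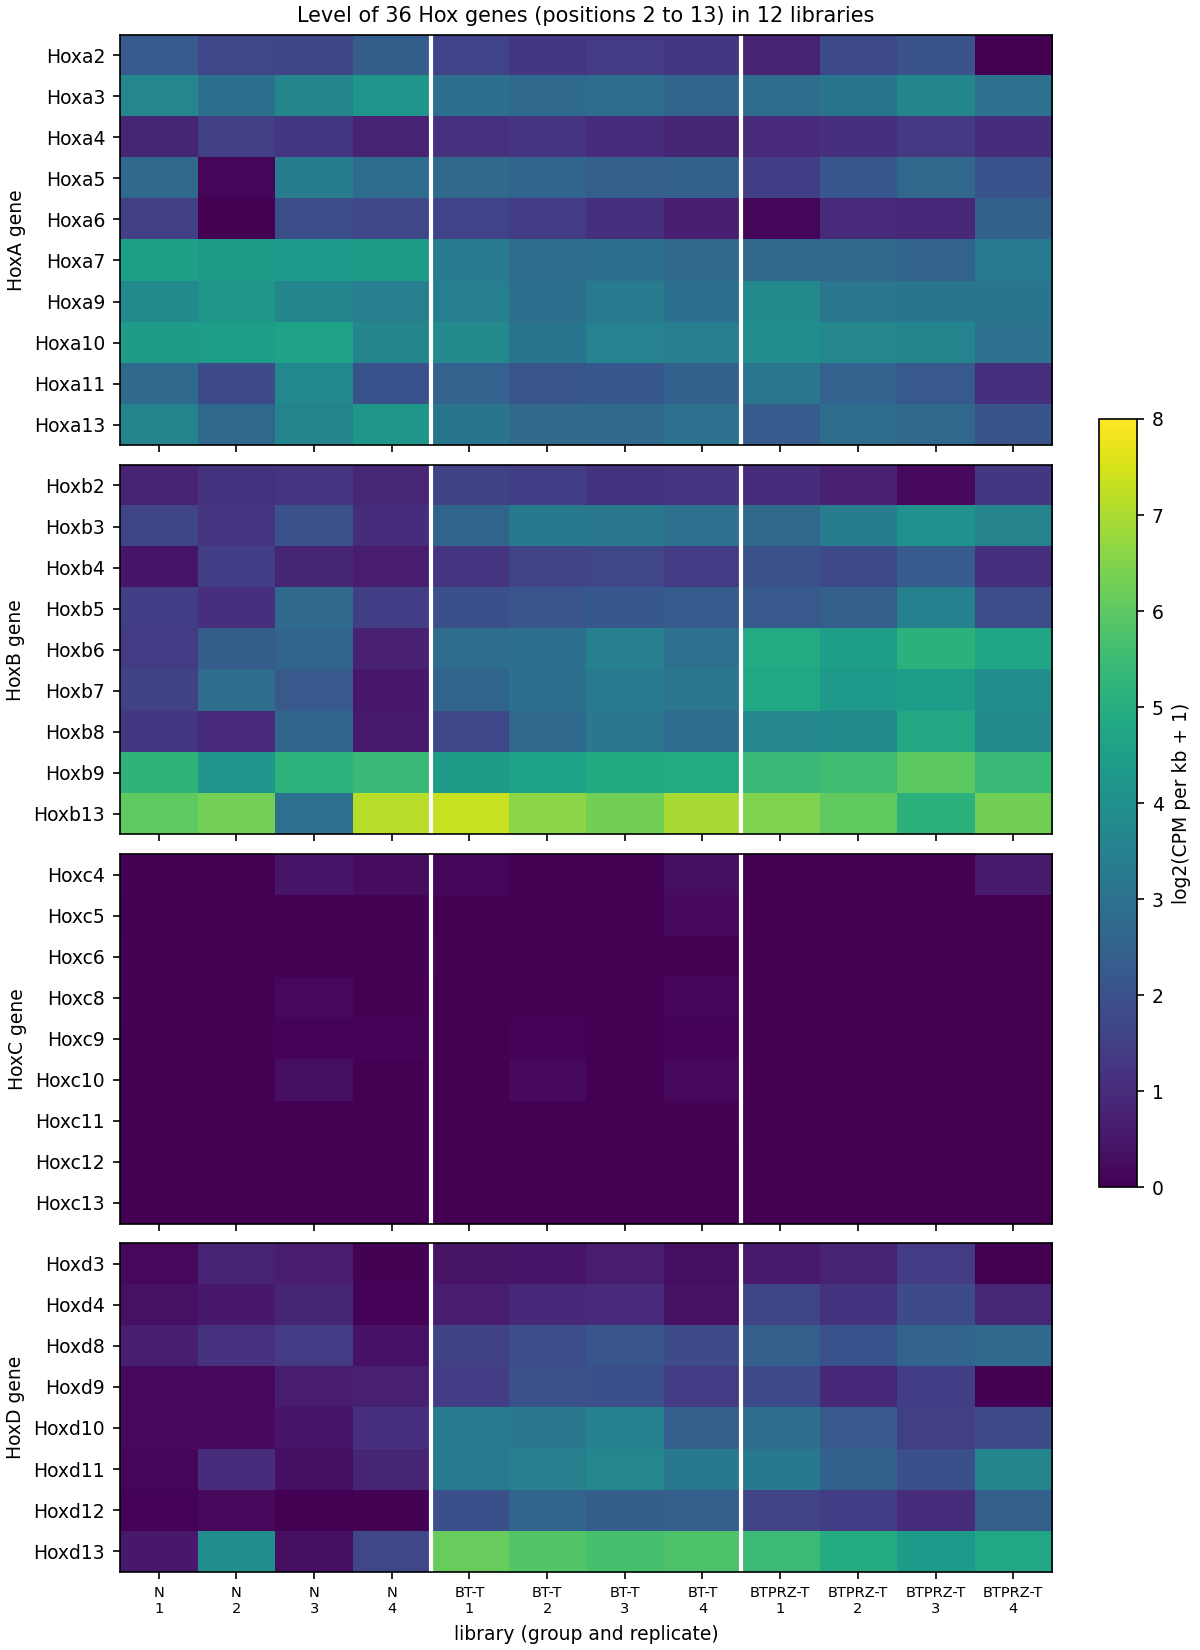
Level of each of the 36 Hox genes at positions 2 to 13 (rows, by cluster and position number) in each of the 12 libraries (columns; white lines part the groups), as log2(CPM per kb + 1). HoxC is dark in all libraries, Hoxd10 to Hoxd13 are darker in N than in the tumours (Hoxd13 least so in N replicate 2), and Hoxb6 to Hoxb8 are brightest in BTPRZ-T.

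The make-up of the Hox level differed more between the groups than its total did. The summed level of all Hox genes was 219 ± 46.3 CPM per kb in N, 311 ± 36.1 for BT-T and 299 ± 24.4 for BTPRZ-T. HoxD made up 24.1 to 30.5% of it in the 4 BT-T libraries and 11.7 to 20.7% in BTPRZ-T, against 0.9 to 8.61% in N. HoxA made up 32.4 to 59.2% in N, 15.0 to 17.8% for BT-T and 15.5 to 18.8% for BTPRZ-T. Neither HoxD nor HoxA overlapped between N and a tumour group. HoxB made up 37.9 to 65.7%, 52.4 to 60.6% and 62.8 to 69.6%, and here N overlapped both. No test was run on these shares.

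**Figure D2:**
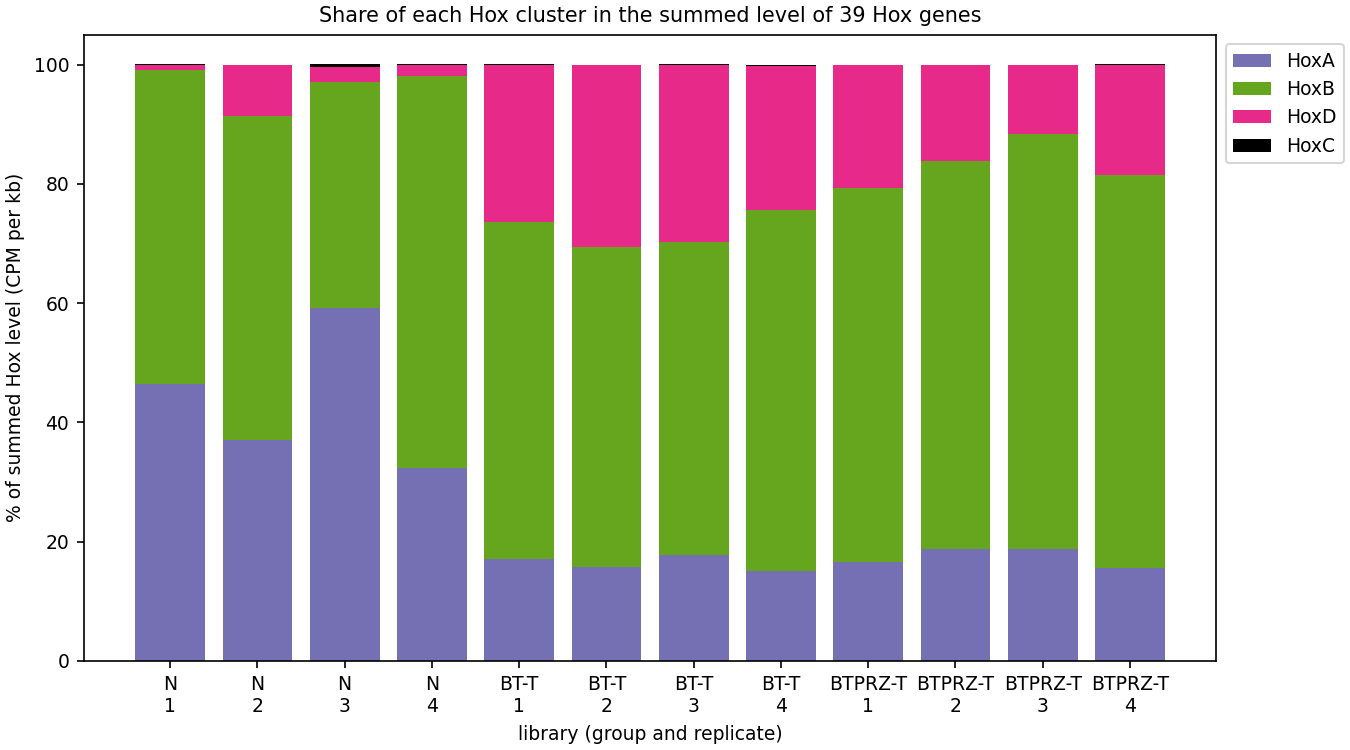
Share of each cluster (stacked bars, %) in the summed CPM per kb of the 39 Hox genes, for each library. The HoxD part is at most 8.61% in the N libraries and at least 11.7% in the tumour libraries, and the HoxC part is too thin to see.

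Of the 39 genes, 28 had enough reads to be tested, 11 of HoxA, 9 of HoxB and 8 of HoxD. Hoxb1, Hoxd1 and all 9 HoxC genes were not tested. In BT-T against N, 6 of the 28 were called at an adjusted p under 0.05 (edgeR's quasi-likelihood test, Benjamini-Hochberg over 14860 genes), where 8.57% of all tested genes were. Of these, 5 were higher (5.67% of all genes) and 1 lower (2.9%). In BTPRZ-T against N, 10 of the 28 were called, where 11.8% of all tested genes were, with 8 higher (5.66%) and 2 lower (6.18%). Both comparisons use the same 4 N libraries and are therefore not independent. In bulk tissue, a change in the share of a cell type and a change of RNA per cell cannot be told apart.

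The cell make-up of the samples differed between the groups by the markers of several cell types. Summed CPM of 10 fibroblast markers were 1260 to 2050 in N, 8700 to 17000 for BT-T and 1900 to 8610 for BTPRZ-T, with 8 of 10 called higher in BT-T and 4 of 10 in BTPRZ-T. The sum of 8 smooth muscle markers was 7110 to 19000, 3590 to 5840 and 471 to 4820. That of 7 mature colonocyte markers was 6120 to 8710, 568 to 1980 and 599 to 1510. Endothelial markers summed to 140 to 259, 418 to 830 and 318 to 646 CPM, macrophage markers to 143 to 404, 576 to 898 and 243 to 1170, and markers of enteric neurons and glia to 40.3 to 86.3, 22.4 to 57.4 and 7.05 to 35.7. No marker of these lists was without reads in any group. The part of these shifts in the Hox results was not tested.

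Hoxd10 to Hoxd13 were low in normal colon, apart from Hoxd13 in 1 library, and had reads in all tumour libraries. They are best known for patterning the limb, the genitals and the hindgut with its sphincter. All 4 rose in BT-T, by between 3.75 and 6.12 on the log2 scale, and Hoxd10, Hoxd11 and Hoxd12 rose in BTPRZ-T as well. The median log2 fold change of the 8 tested HoxD genes was 3.22 in BT-T and 2.51 in BTPRZ-T, against -0.10 over all tested genes in each comparison.

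Hoxd12 had the largest fold change of the Hox genes. In N replicates 1 to 4 it was at 0.115, 0.406, 0 and 0.0675 CPM, which is 9 reads in all. In BT-T it was at 7.18, 13.1, 10.5 and 11.1 CPM, and in BTPRZ-T at 5.42, 4.50, 2.59 and 11.2 CPM. Every tumour library lay above every N library. The log2 fold change was 6.12 ± 0.82 (SE) in BT-T (adjusted p = 0.00101, edgeR) and 5.30 ± 0.80 in BTPRZ-T (adjusted p = 0.00156).

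Hoxd11 and Hoxd10, which follow Hoxd12 along the cluster, rose in both tumour groups too. Hoxd11 was at 0.230, 3.45, 0.886 and 2.57 CPM in N, at 30.4, 34.6, 40.2 and 28.2 in BT-T and at 28.5, 15.7, 9.70 and 38.9 in BTPRZ-T. N lay below both tumour groups, and BTPRZ-T was the more scattered of these. The log2 fold change was 4.23 ± 0.69 in BT-T (adjusted p = 0.00282, edgeR) and 3.71 ± 0.67 in BTPRZ-T (adjusted p = 0.00404). Hoxd10 was at 0.230, 0.271, 0.650 and 2.03 CPM in N, at 15.5, 14.9, 19.02 and 7.85 in BT-T and at 11.4, 6.75, 3.36 and 4.80 in BTPRZ-T. On the log2 scale it rose by 4.17 ± 0.70 in BT-T (adjusted p = 0.00334, edgeR) and by 3.05 ± 0.68 in BTPRZ-T (adjusted p = 0.0123). Again no N library reached a tumour library.

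Hoxd13, the last gene of the cluster, carried most of the posterior HoxD level per kb in all tumour libraries, but not in N replicates 3 and 4. It was at 1.15, 35.3, 0.591 and 5.67 CPM in N, at 174.6, 142.1, 124.0 and 131.6 in BT-T and at 105.4, 72.8, 46.2 and 66.7 in BTPRZ-T. The groups did not overlap, but N replicate 2 stood far above the other N libraries. The log2 fold change was 3.75 ± 0.97 in BT-T (adjusted p = 0.0323, edgeR), and 2.77 ± 0.93 in BTPRZ-T, which was not called (adjusted p = 0.0740). Without N replicate 2 the values were 5.88 (adjusted p = 0.000305) and 4.90 (adjusted p = 0.000322), and both were called. The call in BT-T was lost when N replicate 1 or 4 or any 1 of the 4 BT-T libraries was left out, and with the 2 groups alone (adjusted p = 0.0795). With the replicate number as a block, the BTPRZ-T value was 3.76 and was called (adjusted p = 0.0487). Per kb, Hoxd13 was at 4.30 ± 6.67 in N, 57.6 ± 8.97 for BT-T and 29.3 ± 9.90 for BTPRZ-T. In BT-T it was the second highest Hox gene after Hoxb13 (114 ± 35.8) and above Hoxb9 (25.3 ± 4.38), and no neighbours in this order overlapped.

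**Figure D3:**
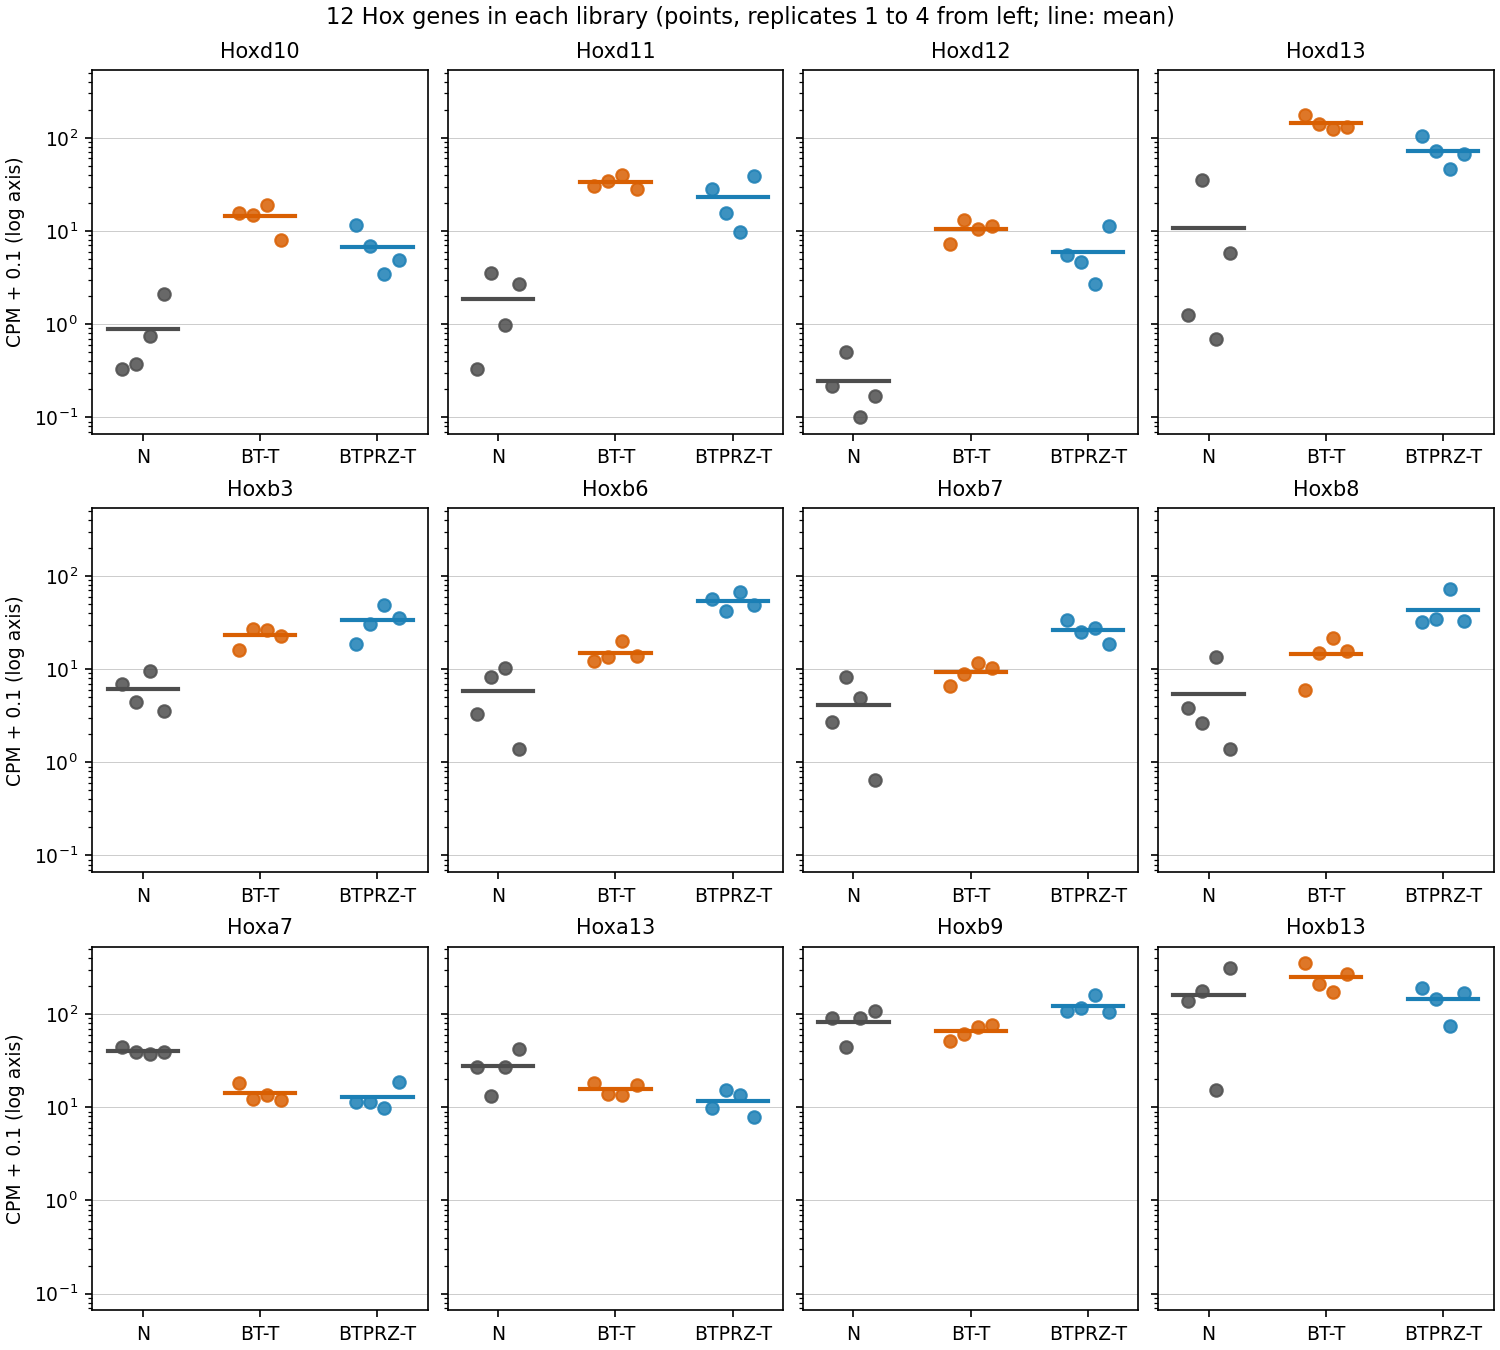
CPM + 0.1 on a log axis of 12 Hox genes in each library (points, replicates 1 to 4 from the left; lines are group means). Hoxd10 to Hoxd13 and Hoxb3 are lower in all N than in all tumour libraries, Hoxa7 is higher in all N libraries, and single N libraries stand apart for Hoxd13 (replicate 2) and Hoxb13 (replicate 3).

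Toward the middle of HoxD the changes were smaller. Hoxd8 was at 1.55, 3.11, 4.37 and 0.810 CPM in N, at 5.19, 7.06, 8.91 and 6.74 in BT-T and at 11.5, 8.04, 12.7 and 14.8 in BTPRZ-T. It lay above N in all tumour libraries and rose in BTPRZ-T (2.25 ± 0.48, adjusted p = 0.0103, edgeR), while in BT-T it was not called (1.50 ± 0.47, adjusted p = 0.0708). Hoxd9 was at 0.758 ± 0.560 CPM in N, 4.92 ± 1.46 for BT-T and 2.72 ± 2.28 for BTPRZ-T, with adjusted p = 0.149 and 0.312, and had no read in BTPRZ-T replicate 4. Hoxd3 and Hoxd4 had means of 1.02 to 4.40 CPM and were not called. Their annotated exons overlap on the same strand, so reads between them may be divided uncertainly. Hoxd1 had 1 read in all 12 libraries.

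Without N replicate 2, BTPRZ-T replicate 1 and BTPRZ-T replicate 4, the libraries with the fewest detected genes, 16 Hox genes were called in each comparison with N, 10 higher and 6 lower in BT-T and 14 higher and 2 lower in BTPRZ-T. That fit also called more of all genes, 28.7% and 34.9% of 15208. All 8 tested HoxD genes were higher in BTPRZ-T there, and 6 of 8 in BT-T. Hoxd10, Hoxd11 and Hoxd12 kept their call in BT-T under all 22 alternatives. In BTPRZ-T, Hoxd11 and Hoxd12 did so as well, and Hoxd10 lost it in the fit of the 2 groups alone (adjusted p = 0.0806).

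HoxB genes were called higher in the anterior and middle part of the cluster, mainly in BTPRZ-T, and none was called lower. Its tested genes had a median log2 fold change of 1.09 in BT-T and 1.59 in BTPRZ-T. Of 9 tested genes, 1 rose in BT-T (Hoxb3) and 4 rose in BTPRZ-T (Hoxb3, Hoxb6, Hoxb7 and Hoxb8), where 5.67 and 5.66% of all genes were called higher. Hoxb3 patterns hindbrain and neck, and Hoxb6 to Hoxb8 act at trunk levels, where Hoxb8 is also known from blood cell precursors.

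Hoxb3 was at 6.91, 4.33, 9.45 and 3.44 CPM in N, at 15.9, 26.7, 26.4 and 22.9 in BT-T and at 18.7, 30.1, 49.2 and 34.9 in BTPRZ-T. All tumour libraries lay above N, and the tumour groups overlapped each other. It rose 3.80-fold in BT-T (1.93 ± 0.38, adjusted p = 0.00768, edgeR) and 5.49-fold in BTPRZ-T (2.46 ± 0.38, adjusted p = 0.00187). The call held under all 22 alternatives in both comparisons.

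Hoxb6, Hoxb7 and Hoxb8 formed a block of neighbours with their highest levels in BTPRZ-T. Hoxb6 was at 3.17, 8.19, 10.1 and 1.28 CPM in N, at 12.2, 13.3, 20.1 and 13.9 in BT-T and at 56.9, 42.3, 67.4 and 49.1 in BTPRZ-T, with no overlap between any of the 3 groups. It rose 9.47-fold in BTPRZ-T (3.24 ± 0.52, adjusted p = 0.00209, edgeR). In BT-T its log2 fold change of 1.39 ± 0.49 was not called (adjusted p = 0.104).

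Hoxb7 was at 2.59, 8.05, 4.84 and 0.540 CPM in N, at 6.48, 8.72, 11.5 and 10.2 in BT-T and at 33.9, 24.9, 27.5 and 18.5 in BTPRZ-T. BTPRZ-T lay above both other groups, which overlapped. Its log2 fold change was 2.71 ± 0.59 in BTPRZ-T (adjusted p = 0.0110, edgeR) and 1.20 ± 0.56 in BT-T (adjusted p = 0.214). Hoxb8 was at 3.68, 2.57, 13.5 and 1.28 CPM in N, at 5.89, 14.8, 21.2 and 15.8 in BT-T and at 31.8, 34.0, 72.6 and 32.8 in BTPRZ-T. BTPRZ-T again lay above all other libraries, and its replicate 3 stood apart. Hoxb8 rose in BTPRZ-T (3.02 ± 0.67, adjusted p = 0.0124, edgeR), and missed the threshold in BT-T (1.45 ± 0.64, adjusted p = 0.188). With the 2 groups alone, the calls of Hoxb7 (adjusted p = 0.0571) and Hoxd8 (adjusted p = 0.0576) in BTPRZ-T were lost.

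The summed level of Hoxb5 to Hoxb8 was 10.6 ± 7.12 CPM per kb in N, 23.7 ± 5.99 for BT-T and 69.3 ± 17.7 for BTPRZ-T. These genes held 1.18 to 11.1%, 4.53 to 10.9% and 19.3 to 31.2% of the Hox level. In BTPRZ-T, Hoxb6 (27.5 ± 5.48 CPM per kb), Hoxb7 (20.3 ± 4.93) and Hoxb8 (16.3 ± 7.54) followed Hoxb13 (65.8 ± 22.8), Hoxb9 (47.6 ± 9.65) and Hoxd13 in the order of levels, with overlap between each pair of neighbours. Hoxb2, Hoxb4 and Hoxb5 were not called in either comparison with N, with log2 fold changes between -0.37 and 1.59. Hoxb1, active in the early hindbrain, had 2 reads in all.

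Hoxb13 and Hoxb9 were the highest HoxB genes in every group and were not called with all 12 libraries. Hoxb13 was at 139.3, 176.0, 15.2 and 309.3 CPM in N, at 353.0, 212.0, 171.2 and 272.0 in BT-T and at 191.0, 144.9, 75.4 and 169.7 in BTPRZ-T. The 3 groups overlapped, and N replicate 3 was the lowest library of all. Hoxb13 differed by 0.66 ± 0.62 on the log2 scale in BT-T (adjusted p = 0.564, edgeR) and by -0.14 ± 0.61 in BTPRZ-T (adjusted p = 0.932). Hoxb9 was at 91.4, 43.8, 91.0 and 106.9 CPM in N, at 50.8, 61.5, 71.8 and 76.0 in BT-T and at 107.6, 117.3, 159.1 and 106.4 in BTPRZ-T. Its log2 fold changes against N were -0.36 ± 0.27 and 0.56 ± 0.27 (adjusted p = 0.461 and 0.229).

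The normal libraries were not alike in this cluster. N replicate 3, with the lowest Hoxb13, had the highest Hoxb5 (15.7 CPM), Hoxb6 and Hoxb8 of its group. N replicate 4, with the highest Hoxb13, had the lowest Hoxb6, Hoxb7 and Hoxb8. The ratio of the levels per kb of Hoxb13 to Hoxb8 was 45.2, 81.7, 1.35 and 288 in N replicates 1 to 4. Its range was 9.63 to 71.6 across BT-T and 1.24 to 7.17 across BTPRZ-T. The labels do not say from which part of the colon each normal sample came.

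HoxA genes had mostly negative values in the tumours, and few were called. Of its 11 genes, 10 had a negative log2 fold change in each comparison, with medians of -0.67 in BT-T and -0.54 in BTPRZ-T. Over all tested genes, 56% and 56.8% were negative. Without N replicate 3, 7 of the 11 were negative in each comparison. In BT-T 1 fell (Hoxa7), and in BTPRZ-T 2 fell (Hoxa7 and Hoxa13), where 2.9 and 6.18% of all genes were called lower.

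Hoxa7, a trunk-level gene, varied least of the tested Hox genes in normal colon relative to its mean, with 40.0 ± 2.80 CPM. It was at 44.0, 39.3, 37.5 and 39.4 CPM in N, at 18.2, 12.3, 13.5 and 11.9 in BT-T and at 11.2, 11.4, 9.75 and 18.4 in BTPRZ-T. All tumour libraries lay far below all N libraries, and the tumour groups overlapped. Hoxa7 fell by 1.52 ± 0.25 on the log2 scale in BT-T (adjusted p = 0.0031, edgeR) and by 1.66 ± 0.25 in BTPRZ-T (adjusted p = 0.00166). Both calls held under all 22 alternatives.

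Hoxa13, which acts with Hoxd13 in hindgut, genitals and limb, was at 26.9, 12.995, 27.0 and 42.6 CPM in N, at 18.2, 13.8, 13.5 and 17.1 in BT-T and at 9.62, 15.2, 13.3 and 7.81 in BTPRZ-T. N replicate 2 lay within the range of the tumours, so the groups overlapped. It fell by 1.25 ± 0.35 on the log2 scale in BTPRZ-T (adjusted p = 0.0346, edgeR), and missed the threshold in BT-T (-0.81 ± 0.34, adjusted p = 0.174). The BTPRZ-T call is a weak one, since it was lost in 13 of 22 alternatives. These were the replicate number as a block (-1.18, adjusted p = 0.112), limma with voom (adjusted p = 0.0524), the 2 groups alone (adjusted p = 0.131), and the fits without N replicate 1, 3 or 4, BTPRZ-T replicate 1, 3 or 4, or any 1 of the BT-T libraries. The ratio of the levels per kb of Hoxd13 to Hoxa13 was 0.0211 to 2.62 in N, 7.41 to 9.91 for BT-T and 3.34 to 10.6 for BTPRZ-T.

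Hoxa10 was the highest HoxA gene per kb in both tumour groups, at 10.2 ± 2.07 in BT-T and 11.1 ± 2.92 in BTPRZ-T. In CPM it was at 50.9, 54.9, 60.1 and 29.1 in N, at 32.4, 19.7, 27.6 and 24.7 in BT-T and at 36.3, 30.7, 28.9 and 18.3 in BTPRZ-T. The groups overlapped through N replicate 4, and it was not called (-0.90 ± 0.28, adjusted p = 0.0719, and -0.77 ± 0.28, adjusted p = 0.102, edgeR). Hoxa3, a gene of the pharyngeal arches, had a log2 fold change of -1.02 ± 0.30 in BT-T (adjusted p = 0.0548). The other HoxA genes had adjusted p values of 0.142 or more in BT-T. Hoxa2 had no read in BTPRZ-T replicate 4, and Hoxa6 none in N replicate 2.

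HoxC was close to silent throughout. Its 9 genes together had 3, 1, 27 and 10 reads in N, 6, 12, 5 and 30 in BT-T and 0, 1, 0 and 24 in BTPRZ-T. More of these came from Hoxc4 than from any other gene of the cluster. It was also the highest of them per kb in each group, with 0.0576, 0, 0.768 and 0.405 CPM in N, 0.174, 0.0487, 0.0833 and 0.507 for BT-T and 0, 0, 0 and 1.05 in BTPRZ-T. The reads sat mainly in N replicate 3, BT-T replicate 4 and BTPRZ-T replicate 4. Hoxc12 and Hoxc13 had no read in any library, which allows levels of up to 0.047 CPM in N, 0.0323 for BT-T and 0.0387 for BTPRZ-T (3 reads over the group, counting error only). No HoxC gene was tested, and exons of Hoxc5 and Hoxc10 overlap on the same strand.

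**Figure D4:**
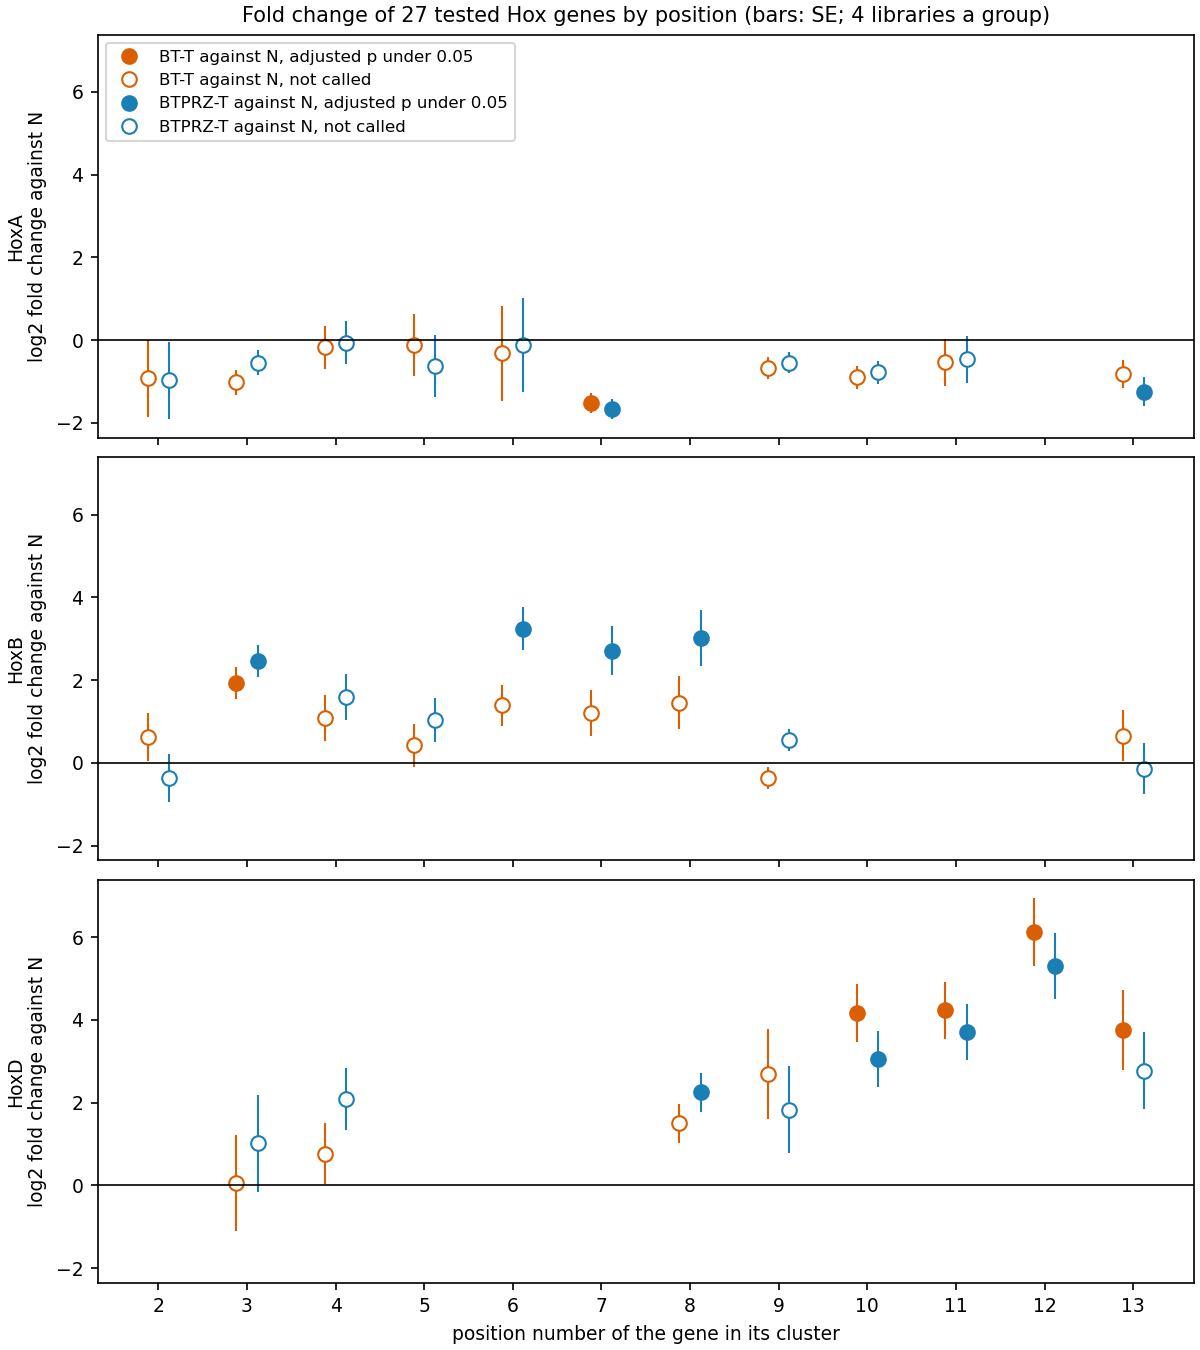
Log2 fold change against N (points; bars are ± SE) of the 27 tested Hox genes at positions 2 to 13 by position number, with 1 panel per cluster; filled points have an adjusted p under 0.05. Posterior HoxD genes reach up to 6.12, HoxB genes 6 to 8 stand higher for BTPRZ-T than for BT-T, and HoxA lies mostly below 0.

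Read by position number over all clusters, genes of the same number went different ways. At position 13, Hoxa13 fell in BTPRZ-T, Hoxb13 was not called, Hoxd13 rose in BT-T, and Hoxc13 was not detectable at this depth. At position 7, Hoxa7 fell in both tumour groups and Hoxb7 rose in BTPRZ-T. At position 10, Hoxd10 rose while Hoxa10 had negative values. Of 11 tested genes at positions 9 to 13, 4 rose and none fell in BT-T, and 3 rose and 1 fell in BTPRZ-T. Of 11 at positions 4 to 8, 1 fell in BT-T, and in BTPRZ-T 4 rose and 1 fell. Over all genes, 5.67% rose and 2.9% fell in BT-T, and 5.66% rose and 6.18% fell in BTPRZ-T. Among the anterior genes, Hoxb3 rose in each comparison.

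The summed level at position 13 was 88.2 ± 58.8 CPM per kb in N, 178 ± 44.7 for BT-T and 99.9 ± 31.0 for BTPRZ-T. By group means most of it was Hoxb13, with Hoxa13 next in N and Hoxd13 next in the tumours. The N libraries were not alike in this: in replicate 3 Hoxa13 lay above Hoxb13, and in replicate 2 Hoxd13 lay above Hoxa13. The ratio of the levels per kb of Hoxd13 to Hoxb13 was 0.00734 to 0.178 in N, 0.43 to 0.643 for BT-T and 0.349 to 0.544 for BTPRZ-T, so all tumour libraries lay above all N libraries. Positions 4 to 8 together held 19.8 ± 8.26% of the Hox level in N, 14.2 ± 3.04% for BT-T and 30.4 ± 5.92% for BTPRZ-T. Positions 9 to 13 held 71.7 ± 9.63, 80.3 ± 3.91 and 62.2 ± 8.27%.

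**Figure D5:**
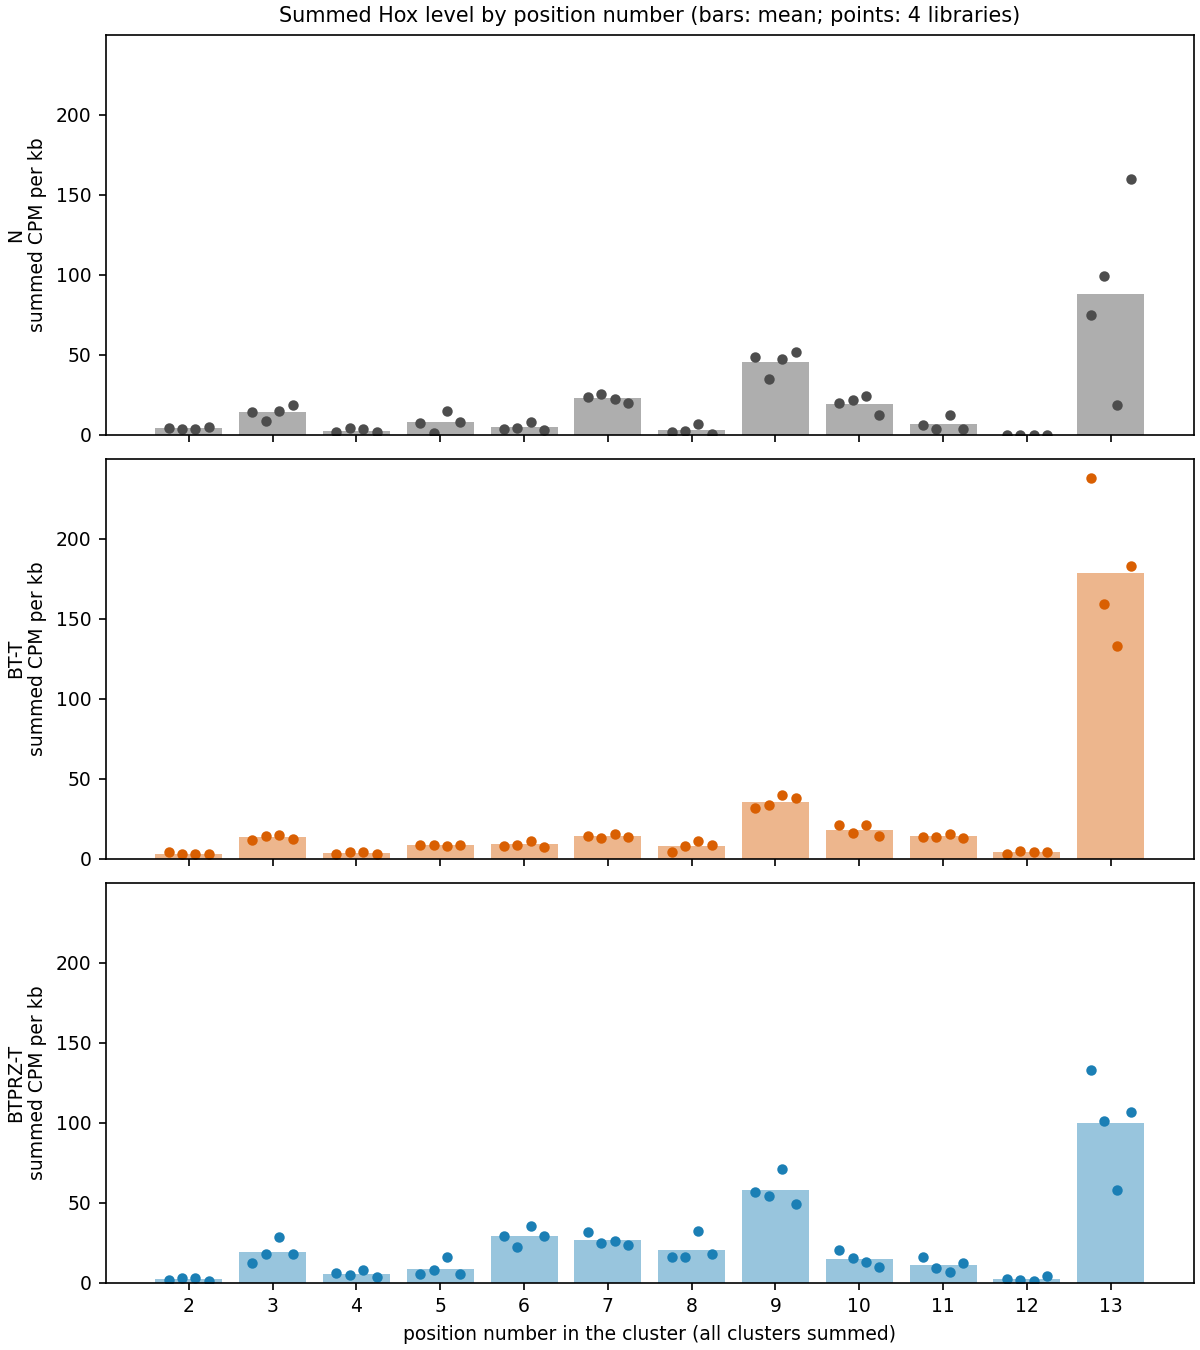
Summed CPM per kb of all Hox genes with the same position number from 2 to 13 (x axis), by group (panels; bars are means, points are the 4 libraries). Position 13 is the highest mean in each group, at 88.2, 178 and 99.9, and positions 6 to 8 stand higher in BTPRZ-T than in BT-T.

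No Hox gene was called between the 2 tumour groups. In BTPRZ-T against BT-T, edgeR called 0 of 28, where 0.754% of all tested genes were called. At an unadjusted p under 0.05 there were 4 of 28, which is not a larger share than the 2564 of all 14860 tested genes. These 4 were all of HoxB and all higher in BTPRZ-T. DESeq2 called 2 and limma with voom called 1, and both also called more of all genes than edgeR did (counts are given at the end). The 4 genes were Hoxb6 (1.86 ± 0.49, adjusted p = 0.0952), Hoxb9 (0.91 ± 0.28, adjusted p = 0.127), Hoxb7 (1.50 ± 0.56, adjusted p = 0.198) and Hoxb8 (1.57 ± 0.63, adjusted p = 0.236). For each of them all 4 BTPRZ-T libraries lay above all 4 BT-T libraries. Genes picked by a low p are often separated in this way, so this adds nothing to the p-values. The share of all genes without such overlap was not counted.

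The number of calls moved with the normal libraries, which are no part of this comparison but share its fit. Without N replicate 2, 3 Hox genes were called, and without N replicate 4, 1. With the 2 tumour groups fitted alone, 5 were called, 4 higher and 1 lower. The calls over all genes moved as well when single libraries were left out, and rose with the 2 groups alone (counts are given at the end). The median log2 difference of the 8 tested HoxD genes was -0.67, and that of the 9 HoxB genes was 0.61. Hoxd13 lay lower in all BTPRZ-T than in all BT-T libraries, with a log2 difference of -0.98 ± 0.87 (adjusted p = 0.568, edgeR). Fibroblast markers were lower in BTPRZ-T as well, with negative values for 10 of 10 genes, beside 7643 of all 14860 tested genes. Of the 10 markers, edgeR called 0 (8 at an unadjusted p under 0.05), DESeq2 7 and limma with voom 1. Both other tools also called more of all genes than edgeR. The part of the fibroblast markers in the HoxD values was not tested.

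Of 3 tested transcripts from between the Hox genes, 1 fell in BT-T and 2 fell in BTPRZ-T, beside 2.9 and 6.18% of all genes. DESeq2 called 3 lower in each comparison with N, where it also called more of all genes than edgeR (counts are given at the end). With limma and voom, 1 and 2 were called lower. Hottip, a noncoding RNA beside Hoxa13, was at 34.6, 21.3, 14.5 and 36.5 CPM in N, at 15.5, 8.28, 6.45 and 10.3 in BT-T and at 5.42, 4.21, 2.70 and 0.8292 in BTPRZ-T. It fell by 3.02 ± 0.54 on the log2 scale in BTPRZ-T (adjusted p = 0.00366, edgeR), and its value in BT-T was -1.40 ± 0.51 (adjusted p = 0.113). Hoxa11os, antisense to Hoxa11, was at 81.3 ± 33.2, 37.2 ± 12.9 and 30.8 ± 10.1 CPM in N, BT-T and BTPRZ-T. It fell in BTPRZ-T (-1.40 ± 0.36, adjusted p = 0.0265), and in BT-T its value was -1.13 ± 0.36 (adjusted p = 0.0763). Gm53, a noncoding gene of HoxB, fell in BT-T (-0.81 ± 0.22, adjusted p = 0.0415) and was not called in BTPRZ-T (adjusted p = 0.126). These are 3 tested transcripts of a list of 14, of which 5 were in the files.

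Hoxa11os had more reads than Hoxa11 in every library, with 1.68 to 22.6 reads per read of Hoxa11 in the 12 libraries. Within the gene model of Hoxa11, opposite-strand reads were 50.3% of both strands in N, 46.3% for BT-T and 38.9% for BTPRZ-T. Summed over all Hox genes, opposite-strand reads made up 3.92 to 9.09% in N, 1.38 to 2.50% for BT-T and 1.73 to 3.46% for BTPRZ-T. In reads per library they overlapped, at 294 to 732 in N, 203 to 626 for BT-T and 229 to 547 for BTPRZ-T. In N most of them lay at Hoxa11 (902 reads) and Hoxa10 (779 reads). At Hoxb13, the highest gene, there was 1 opposite-strand read against 45070 sense reads over all libraries.

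The genes that flank the clusters were not called with all 12 libraries. Of 22 tested neighbours (6 of HoxA, 4 of HoxB, 6 of HoxC and 6 of HoxD), edgeR called 0 in each of the 3 comparisons, with 6 at an unadjusted p under 0.05 in BT-T against N, 4 in BTPRZ-T against N and 2 between the tumour groups. Over all 14860 tested genes, 3582, 3784 and 2564 had an unadjusted p under 0.05, and edgeR called 8.57, 11.8 and 0.754%. Of the neighbours, DESeq2 called 3, 3 and 1 and limma with voom 1, 2 and 0. DESeq2 also called more of all genes than edgeR in each comparison (counts are given at the end). With the 3 libraries of lowest gene detection left out, edgeR called 8, 13 and 1, where it called 28.7, 34.9 and 24.5% of all genes. Evx2, the homeobox gene directly beyond Hoxd13, was at 0, 0, 0 and 0.405 CPM in N, at 2.44, 2.39, 2.29 and 3.09 in BT-T and at 0.0645, 1.48, 0.881 and 0 in BTPRZ-T. BT-T lay above all other libraries, with a log2 fold change of 4.61 ± 1.52 against N that was not called (adjusted p = 0.0842). Evx1, beyond Hoxa13, was at 4.60 to 11.3 CPM in N, 1.06 to 2.27 for BT-T and 0.0436 to 3.49 for BTPRZ-T, with values of -2.23 ± 0.81 and -2.05 ± 0.81 (adjusted p = 0.115 and 0.126). Both have the sign of the nearest position-13 gene.

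Known partners and regulators of the Hox genes were counted by list. Of 8 tested TALE cofactors, edgeR called 0 in each comparison, with 0, 2 and 2 at an unadjusted p under 0.05. Over all 14860 tested genes, 3582, 3784 and 2564 had an unadjusted p under 0.05, and edgeR called 8.57, 11.8 and 0.754%. Of the cofactors, DESeq2 called 0, 2 and 1, and limma with voom 0, 0 and 1, all of them lower. More of all genes were called by DESeq2 than by edgeR here too. Without the 3 libraries of lowest gene detection, edgeR called 0, 3 and 5 of 9, also lower, beside 28.7, 34.9 and 24.5% of all genes. Of the Cdx and ParaHox genes, Cdx1 fell in both tumour groups (-1.13 ± 0.23, adjusted p = 0.00912, and -1.74 ± 0.23, adjusted p = 0.000796, edgeR). Cdx2, the intestinal master factor, was at 236.7 ± 74.5 CPM in N, 74.6 ± 17.7 for BT-T and 156.5 ± 41.8 for BTPRZ-T. It fell in BT-T (-1.67 ± 0.30, adjusted p = 0.0045) and was not called in BTPRZ-T (-0.60 ± 0.29, adjusted p = 0.223). Pdx1 was not called, and Cdx4, Gsx1 and Gsx2 had no reads.

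Of 20 Polycomb and trithorax regulators, 1 rose in BT-T and 2 in BTPRZ-T, which is near the share of all genes called higher (5.67 and 5.66%). Bmi1, a subunit of Polycomb complex PRC1, rose in both (0.78 ± 0.21, adjusted p = 0.0395, and 1.05 ± 0.21, adjusted p = 0.00763, edgeR). Cbx7, another PRC1 subunit, rose in BTPRZ-T (1.37 ± 0.28, adjusted p = 0.00794). Of 13 tested retinoic acid genes, 4 rose in BT-T, and 5 rose and 1 fell in BTPRZ-T, beside 5.67% higher in BT-T and 5.66% higher and 6.18% lower in BTPRZ-T over all genes. DESeq2 called 8 higher and 1 lower in BT-T, and 6 and 1 in BTPRZ-T. From limma with voom there were 4 and 0, and 2 and 1. Without the 3 libraries of lowest gene detection, edgeR called 9 higher and 2 lower of 14 in BT-T, and 4 and 4 in BTPRZ-T. That fit called 16.1% of all genes higher and 12.6% lower in BT-T, and 18.1 and 16.8% in BTPRZ-T. Aldh1a3, which makes retinoic acid, rose from 9.01 ± 5.33 CPM in N to 784.6 ± 98.7 for BT-T and 144.2 ± 45.2 in BTPRZ-T (6.45 ± 0.53, adjusted p = 0.000127, and 4.00 ± 0.47, adjusted p = 0.000442). It was also lower in BTPRZ-T than in BT-T (-2.44 ± 0.44, adjusted p = 0.0351), the 1 gene of this list that edgeR called there with all 12 libraries. DESeq2 called 3, and edgeR without the 3 libraries of lowest gene detection 5, beside 24.5% of all genes in the latter fit. More of all genes were called by DESeq2 as well than by edgeR with all 12 libraries. Stra6, a retinol transporter, rose in both (3.75 ± 0.72, adjusted p = 0.00712, and 5.98 ± 0.80, adjusted p = 0.000814). So did Cyp26b1 (2.02 ± 0.47, adjusted p = 0.0202, and 1.92 ± 0.47, adjusted p = 0.0203, edgeR). Crabp2, with 4 reads in N, rose in both too (6.11 ± 1.37, adjusted p = 0.0165, and 5.25 ± 1.34, adjusted p = 0.0242, edgeR). Aldh1a1, another retinoic acid enzyme, fell in BTPRZ-T (-3.64 ± 0.69, adjusted p = 0.00532).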

How the data were processed

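RNA was measured in 12 tissue samples, 4 of normal colon (N) and 4 of each tumour genotype (BT-T, BTPRZ-T). Per the labels' protocols, stranded poly(A) libraries were read as single 100-base reads. Per the submitters' processing notes, bcl2fastq 2.20, STAR 2.4.2a, edgeR 3.16.5, limma, HTSeq and the mm10 build were used. The deposited files hold raw read counts per gene symbol, not normalized by the authors, in 1 unstranded and 2 stranded columns. The annotation and the treatment of strand are not given in the sources used here, and column 4, the stranded column with nearly all gene reads, was taken as sense.

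Counts were fitted over all 12 libraries with 1 mean per group (edgeR 4.0.16, R 4.3.3: TMM, filterByExpr, robust glmQLFit, glmQLFTest, two-sided). Benjamini-Hochberg adjustment ran over 14860 of 24054 genes, and an adjusted p under 0.05 was called. SDs are over 4 libraries and each SE belongs to a log2 fold change. Lengths, exons and positions are from GENCODE M21 (GRCm38), and a level per kb is only as good as the transcript it assumes. The Hox genes and gene lists were chosen with earlier results of these data known. Named with values in all libraries are Hox genes called in any comparison, the highest of each cluster per kb and those numbered 13, and of other lists called members, Evx1, Evx2 and the Cdx and ParaHox genes. The 4 promoter motifs and the promoters printed were chosen with the results known. No correlation over libraries is given, since these fall into 3 groups of 4. Alternatives were other factors and filters, DESeq2 1.42.0, limma 3.58.1 with voom, the unstranded column, a replicate block, 2 groups alone and left-out libraries. The fit was tested on simulated data. The values of 1 Hox gene are not reported here.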

Additional observations from a re-analysis of the deposited data

Results flagged for a closer look

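In 4 of the 84 sets of 4 libraries (28 tested genes in 3 groups), 1 library stood far from the other 3 by Dixon's gap test at the 95% level, which chance alone does in about 1 of 20 sets. Hoxd13 in N replicate 2 was at 35.26 CPM, with the other N libraries at 0.591 to 5.67. Hoxb5 in N replicate 3 was at 15.71 CPM, with the others at 3.05 to 5.07. Hoxb8 in BTPRZ-T replicate 3 was at 72.6 CPM, with the others at 31.8 to 34.0. Hoxa9 in BTPRZ-T replicate 1 was at 40.33 CPM, with the others at 24.6 to 25.3.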

How the results depend on the processing

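No called Hox gene changed the sign of its fold change under any of 22 alternatives (21 for the adjusted p of Hoxd13, which DESeq2 gave as NA). Of the 28 tested, 5 genes in BT-T against N, 6 in BTPRZ-T against N and 9 between the tumour groups did so under at least 1, and none of these was called. The number of Hox genes called in BT-T against N was 6, and became 10 with DESeq2, 16 without the 3 libraries of lowest gene detection and 5 to 11 without single libraries, with 11 reached without N replicate 2. In BTPRZ-T against N it was 10, and became 6 with the 2 groups alone, 16 without those 3 libraries and 9 to 14 without single libraries. Between the tumour groups it was 0, and became 2 with DESeq2, 1 with limma and voom, 5 with the 2 groups alone, 5 without those 3 libraries and 0 to 3 without single libraries. Over all genes, the 1274 calls in BT-T against N became 2394 with DESeq2, 4359 without the 3 libraries and 624 to 2030 without single libraries. The 1760 in BTPRZ-T against N became 3048 with DESeq2, 647 with the 2 groups alone, 5311 without the 3 libraries and 1076 to 4855 without single libraries. The 112 between the tumour groups became 1217 with DESeq2, 266 with limma and voom, 1568 with the 2 groups alone, 3723 without the 3 libraries and 0 to 2714 without single libraries. The cause of these shifts was not tested.

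The replicate block left the Hox counts at 6, 10 and 0, and took the calls over all genes in BTPRZ-T against N to 1160 and between the tumour groups to 1. Same-numbered libraries deviated from their group means with correlations from -0.297 to 0.315, which does not settle whether the numbers pair the samples. Between the tumour groups every BTPRZ-T library correlated best with the BT-T library of its own number, a hint of pairing from the data alone. Against N, no tumour library correlated best with its own number. With the union of exons as length, HoxA held 13.6% of the Hox level in BT-T in place of 16.4%, and 14.1% in BTPRZ-T in place of 17.4%. Per kb, Hoxa7 in N was then 13.9 in place of 19.7 (17.7 without TMM), Hoxa7 in BT-T 4.86 in place of 6.89, and Hoxd11 in BT-T 7.91 in place of 9.90. Depth limits Hoxb1, Hoxd1 and HoxC, whose reads are too few to test.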
